A study of Arabidopsis thaliana with 4 samples.

Results

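The DYW family is the set of Arabidopsis genes whose annotated transcripts carry the DYW domain, and 87 of the 22263 reference genes that had any Pfam family in the PacBio annotation were members. They were chosen by name alone: the reference transcripts listed under a family whose name contained DYW were taken, 104 transcripts in all, and collapsed to their genes. No expression value is part of this rule, although the family was taken up with earlier results of these data known. All samples came from wild-type Col-0 plants of *Arabidopsis thaliana* and consisted of the aboveground parts, collected once the rosettes had reached full size. One condition was therefore measured, with no mutant and no treatment, in 3 replicates of amplified cDNA on a Nanopore PromethION (ONT Pc, replicates CK1, CK2 and CK3) and in 1 PacBio Sequel library. Each replicate pooled RNA of several plants, according to the study's methods. ONT Pc levels are given in CPM, the reads of a gene in every 1000000 reads, rescaled here to the own reads of each replicate. A read stands for 1 amplified cDNA molecule whatever its length, so several reads can come from the same original molecule. The PacBio file lists which isoforms carry which family and holds no measurement.

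Plant organelle transcripts are edited after transcription, when chosen cytidines are turned into uridines. Pentatricopeptide repeat (PPR) proteins are encoded in the nucleus, imported into chloroplasts or mitochondria, and bind the RNA just upstream of the cytidine through their repeats. In one class of them the chain ends in the DYW domain, named after its last residues (aspartate, tyrosine, tryptophan). This domain resembles cytidine deaminases and carries the HxE and CxxC motifs that bind zinc. Other PPR editing proteins end earlier, in an E domain, and borrow a DYW domain from a partner. MORF proteins, ORRM proteins and the zinc finger protein OZ1 are further parts of the editing complexes.

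The coding ends of 5 members are shown because they hold the residues that give the family its name, in genes that span its range of levels: DYW1, DYW2 and MEF8, which have few repeats or none and are among the 10 highest members, and CREF7 and MEF7, the lowest of the chloroplast and the mitochondrial factors. Each line gives the last 60 coding bases of the RefSeq transcript with the longest coding sequence (assembly TAIR10.1), stop codon included, with the codons of the last 3 residues in capitals.
DYW1: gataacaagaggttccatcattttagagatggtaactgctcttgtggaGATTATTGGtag
DYW2: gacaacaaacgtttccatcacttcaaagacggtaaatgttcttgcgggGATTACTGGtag
MEF8: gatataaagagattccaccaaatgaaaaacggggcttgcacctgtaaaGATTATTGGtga
CREF7: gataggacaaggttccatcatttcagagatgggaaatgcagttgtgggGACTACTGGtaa
MEF7: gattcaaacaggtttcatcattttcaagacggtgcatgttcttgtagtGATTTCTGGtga
These stretches lie at chr1:17486328-17486387 on the plus strand (DYW1, AT1G47580), chr2:6831855-6831914 on the minus strand (DYW2, AT2G15690), chr2:10889890-10889949 on the plus strand (MEF8, AT2G25580), chr5:26553682-26553741 on the plus strand (CREF7, AT5G66520) and chr5:3102877-3102936 on the minus strand (MEF7, AT5G09950). In the first 4 the capitals spell aspartate, tyrosine and tryptophan in 3 different ways, and in MEF7 a phenylalanine codon stands in the place of the tyrosine codon.

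Of the 87 members, 57 ended in the codons of D, Y and W, against 1 of the 388 other PPR genes. Their ends were written in 4 DNA spellings, GATTATTGG in 24 members, GATTACTGG in 18, GACTACTGG in 11 and GACTATTGG in 4. The remaining 30 members ended otherwise, as MEF7 does. All of the 10 highest members were among the 57. The median level of the 57 was 0.858 ± 0.148 CPM (SD over 3 replicates), and that of the 30 was 0.746 ± 0.275 CPM. Within replicates, both medians were 0.739 CPM in CK1 and 1.02 CPM in CK3. In CK2 the median of the 57 was 0.812 CPM and that of the 30 was 0.474 CPM.

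The deaminase signature was searched as HxE followed by CxxC within the last 150 residues, where x is any residue, and 81 members held it. In 67 of them the histidine and the first cysteine lay 28 residues apart. The DYW1 window around HxE and the one around CxxC are shown with the codons of each motif in capitals, because DYW1 is the highest member and little more than this domain.
DYW1 HxE: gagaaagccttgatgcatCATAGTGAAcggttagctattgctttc
DYW1 CxxC: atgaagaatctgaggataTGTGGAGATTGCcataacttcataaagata
The 6 members without a match, among them the chloroplast factor YS1, had a median of 1.08 ± 0.0847 CPM. Absence of the letters says only that this pattern was not found in the window searched.

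In ONT Pc, 86 of the 87 members were listed, and AT3G02010 was not, so it counts as undetected. At least 1 read in every replicate was found for 74 members (85.1%), against 73.7% of all reference genes with a family and 88.4% of the other PPR genes. With more than 3 reads asked for in every replicate, 46 members (52.9%) were left, against 67.5% of all family genes and 64.7% of the other PPR genes. A mean of at least 1 CPM was reached by 38 members (43.7%), against 66.4% of all family genes and 60.3% of the other PPR genes. DYW genes were thus read about as widely as other PPR genes, and fewer of them went past the higher limits. Reads in 2 replicates only were found for 11 members, and AT2G27610 had a read in 1 replicate only.

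The 87 genes together took 1114 of 8122432 reads in CK1, 1043 of 7386184 in CK2 and 1087 of 6835029 in CK3. These are 0.0137% of the reads in CK1 (95% Wilson interval 0.0129 to 0.0145), 0.0141% in CK2 (0.0133 to 0.0150) and 0.0159% in CK3 (0.0150 to 0.0169), with a mean of 0.0146 ± 0.00116% (SD, n = 3). Intervals cover counting error only, since amplified cDNA reads are not independent molecules. The CK3 interval lay above that of CK1 and met that of CK2 at its edge. Among the 86 members with a read, 46 (53.5%) had their highest value in CK3, and so did 43.0% of the 18224 family genes with a read. CK3 had the fewest reads, so a gene with the same number of reads in each replicate has its highest CPM there. Family genes were not matched to the members by reads, so these shares are not like for like. At these depths 3 reads, taken as the limit that a count of 0 allows, correspond to 0.369 CPM in CK1, 0.406 CPM in CK2 and 0.439 CPM in CK3.

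The median member stood at 0.739 CPM in CK1, 0.677 CPM in CK2 and 1.02 CPM in CK3, which are 6, 5 and 7 reads. The median of the other PPR genes was 1.42, 1.49 and 1.61 CPM in the same order, and that of all family genes was 4.68, 5.01 and 5.27 CPM. The DYW median was lower than the others in each replicate, at 0.538 ± 0.0919 of the other PPR median and 0.162 ± 0.0299 of the median of all family genes (SD, n = 3). With each level divided by transcript length, the ratio to the other PPR genes was 0.536. Of the 87 members, 82 had a mean below the median of all family genes, 5.10 CPM, and 0 reached 19.9 CPM, their 75th percentile. In bulk samples such as these, fewer cells expressing a gene and less RNA per cell cannot be told apart.

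**Figure D1:**
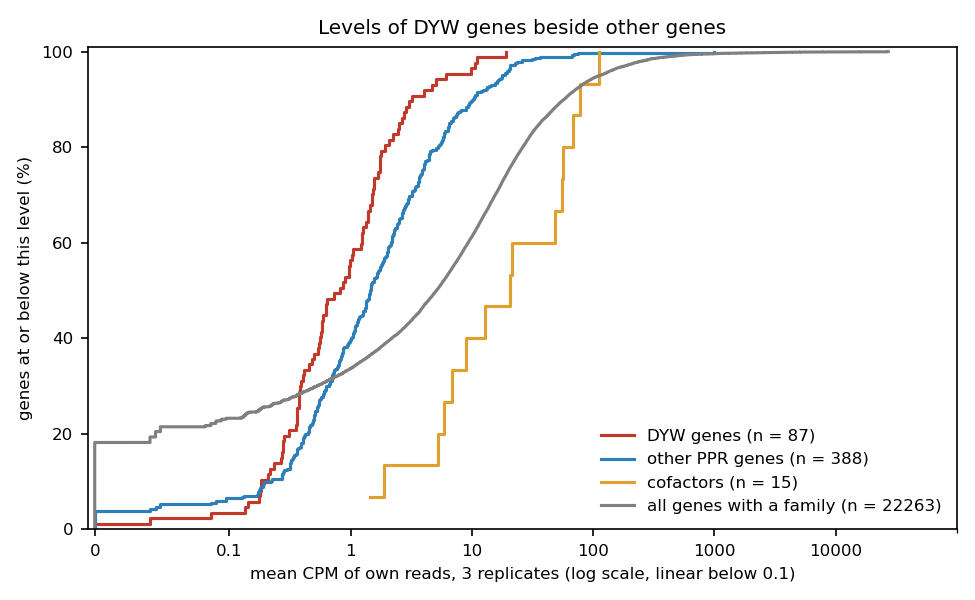
Cumulative share of genes (y axis, %) at or below each mean level in CPM of own reads (x axis, log scale, linear below 0.1) for DYW genes (n = 87), other PPR genes (n = 388), cofactors (n = 15) and all genes with a family (n = 22263). The DYW curve ends at 19.1 CPM, and 1 DYW gene and 4039 of all family genes lie at 0.

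The family was led by 4 genes. DYW1, a short protein that supplies the DYW domain to the E-type factor CRR4 at the start codon of the chloroplast transcript ndhD, had 13.8, 23.8 and 19.6 CPM in CK1, CK2 and CK3. LPA66 (AT5G48910), needed for editing of psbF of photosystem II, had 13.1, 9.48 and 10.4 CPM. DYW2, a partner of E+ type factors in both organelles, had 11.3, 9.48 and 11.0 CPM. AT1G19720, to which no name was given, had 10.3, 9.34 and 9.51 CPM. In each replicate all 4 were above every other member, since the lowest of their values was 9.34 CPM and the highest of the other 83 members was 6.88 CPM. The 4 were picked as the highest by these same values, so their separation is a description only. They held 1124 of the 3244 reads of the family, or 34.6%.

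DYW1 was above LPA66 in 3 of 3 replicates, by 8.10 ± 6.87 CPM (SD, n = 3). These genes were picked as the highest and the next by the same values, so the difference is a description with no test. AT1G19720 was below both LPA66 and DYW2 in 3 of 3 replicates, though the ranges of neighbours overlapped. In CK2 it had 69 reads against 70 for each of them, and these genes too were ordered by the same values. LPA66 and DYW2 had no such order, since LPA66 was the higher in CK1, the values were the same in CK2, and DYW2 was the higher in CK3. The step from AT1G19720 down to AT2G41080 was free of overlap, with 5.05, 6.23 and 6.88 CPM for AT2G41080. The step from CRR2 down to AT1G18485 was free of overlap too. Of the 86 pairs of neighbours in the order of means, 83 overlapped.

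Next in order were CREF3, which serves psbE (4.68, 5.42 and 4.97 CPM), and RARE1, which serves accD (4.43, 4.87 and 4.68 CPM). CRR2, which acts in cutting the RNA between rps7 and ndhB, had 3.69, 3.79 and 4.54 CPM. AT1G18485 had 3.20, 2.84 and 3.51 CPM, and MEF8, a protein with few repeats that acts on nad5 and nad6 in mitochondria, had 3.20, 2.57 and 3.37 CPM. The 10 highest members thus held 5 chloroplast factors, 1 mitochondrial factor, DYW2 and 3 genes with no role in the lists used here.

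**Figure D2:**
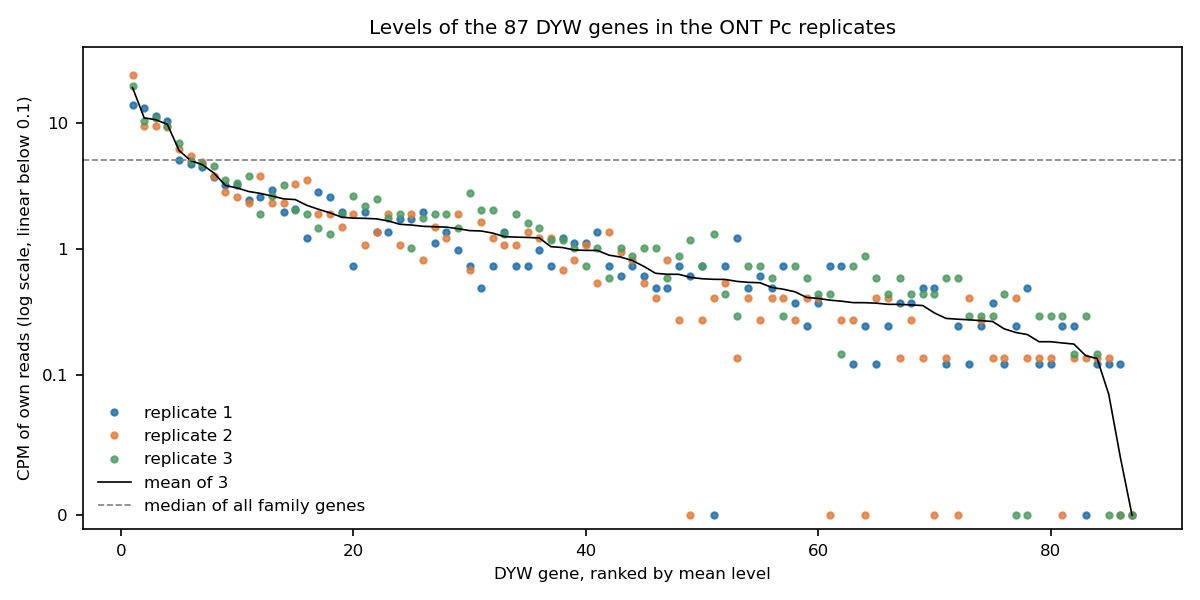
Level of each of the 87 DYW genes in CPM of own reads (y axis, log scale, linear below 0.1) against its rank by mean level (x axis), with a point for each ONT Pc replicate, a line for the mean, and a dashed line at 5.10 CPM, the median of all family genes. The 4 leading genes stand apart at 9.34 CPM and above, and the other 83 reach from 6.88 CPM down to 0.

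Factors with a known chloroplast target, 17 of the 87, ran from a mean of 0.266 CPM in CREF7, rank 75 of the family, to 19.1 CPM in DYW1. All 17 were read in every replicate, against 73.7% of all family genes. A mean of at least 1 CPM was reached by 13, against 66.4% of all family genes. After the leaders came ECB2, which acts on accD and ndhF, with a mean of 2.86 ± 0.825 CPM (SD, n = 3), and CRR28, which acts on ndhB and ndhD of the NDH complex, with 2.59, 3.79 and 1.90 CPM. OTP86 for rps14 had a mean of 2.63 ± 0.327 CPM, ELI1 for ndhB 2.46 ± 0.681 CPM and CRR22 for ndhB, ndhD and rpoB 1.93 ± 0.635 CPM (SD, n = 3 each). OTP84 for ndhB, ndhF and psbZ had 1.55 ± 0.462 CPM, OTP85 for ndhD 1.39 ± 0.804 CPM and OTP81 for the rps12 intron and matK 1.24 ± 0.598 CPM.

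The other 4 chloroplast factors were below 0.5 CPM on average. YS1, which edits rpoB of the plastid RNA polymerase, had 6, 3 and 2 reads, and DOT4, which edits rpoC1, had 6, 2 and 1 reads. OTP82 for ndhB and ndhG had 4, 1 and 3 reads, and CREF7 for ndhB had 3, 1 and 2 reads. Factors listed for the same transcript differed in mean level. For ndhB these are CRR28, ELI1, CRR22, OTP84, OTP82 and CREF7, whose means ran from 2.76 CPM in CRR28 to 0.266 CPM in CREF7. The values of CRR28 and CREF7 did not overlap, but the pair was picked as the highest and the lowest by the same values. CREF7 had no more than 3 reads in any replicate. It also lies wholly within the span of AT5G66530, to which some of its reads could have been credited.

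Factors with a known mitochondrial target numbered 11, and 9 of them were read in every replicate, against 73.7% of all family genes. MEF8 was the highest, and its near copy MEF8S had 0.739, 1.90 and 2.63 CPM. MEF8 was above MEF8S in each replicate. MEF11, which serves cox3 and nad4, had 1.97, 0.812 and 1.76 CPM, and MEF1, which serves rps4, nad7 and nad2, had 1.11, 1.49 and 1.90 CPM. MEF26 for cox3 had a mean of 1.22 ± 0.239 CPM and MEF29 0.974 ± 0.211 CPM (SD, n = 3 each). MEF35 for rpl16 and nad4 had 0.580 ± 0.268 CPM, and REME1 for nad2 had 0.573 ± 0.152 CPM. MEF10 for nad2 had 6, 0 and 3 reads, MEF22 for nad3 had 2, 0 and 4 reads, and MEF7 had 1, 1 and 3 reads.

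The median chloroplast factor stood at 2.46, 2.30 and 2.05 CPM in CK1, CK2 and CK3, and the median mitochondrial factor at 0.739, 0.812 and 0.732 CPM. The chloroplast median was 2.99 ± 0.299 times the mitochondrial median (SD, n = 3) and was the higher in 3 of 3 replicates. The mitochondrial medians are 6, 6 and 5 reads, so this ratio rests on few reads. The ranges of the lists overlapped, since 4 chloroplast factors were below 0.5 CPM in the mean. Without DYW1 the ratio was 2.79, over factors read in every replicate it was 2.01, and on levels per kb of transcript it was 2.43. The 59 members in neither list had a median of 0.633 ± 0.236 CPM. The lists hold factors whose target has been worked out, are no random sample of the family, and were written with earlier results of these data known, as were those of cofactors and E-type factors.

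**Figure D3:**
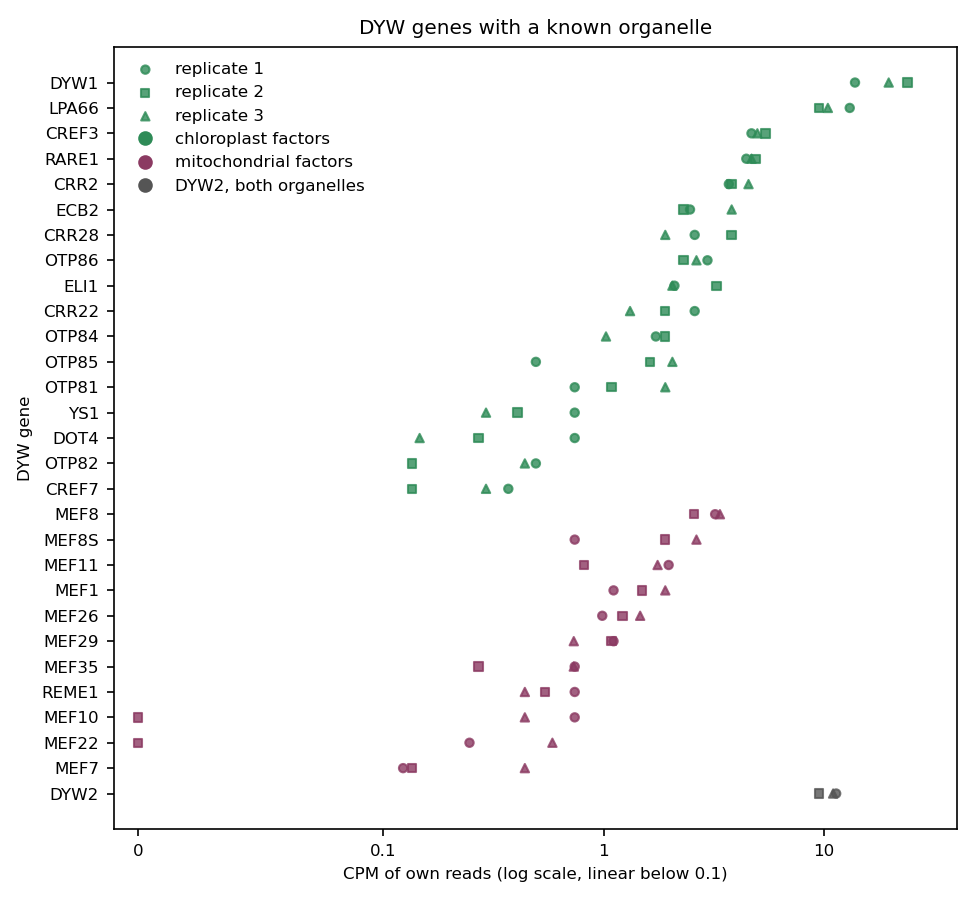
Level in CPM of own reads (x axis, log scale, linear below 0.1) of the DYW genes with a known organelle (y axis), with a symbol for each ONT Pc replicate and a color for chloroplast factors, mitochondrial factors and DYW2, which serves both organelles. Chloroplast factors reach from 0.266 CPM (CREF7) to 19.1 CPM (DYW1) in the mean, and mitochondrial factors from 0.232 CPM (MEF7) to 3.05 CPM (MEF8).

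Among the proteins that carry the DYW domain with few repeats or none, DYW1, DYW2 and MEF8 were among the 10 highest members, and MEF8S had rank 20. DYW1, DYW2, MEF8 and MEF8S had a median of 6.82 ± 0.690 CPM and together took 236, 279 and 250 reads in CK1, CK2 and CK3. DYW1 is encoded by 720 coding bases, the shortest of the family, and per kb of transcript it stood at 21.5 CPM per kb. Its lead on this scale is widened by its short transcript, since reads were counted whatever their length. LPA66 at 4.64, DYW2 at 3.81 and AT1G19720 at 3.17 CPM per kb kept the next places. DYW3, DYW4, GRS1 and the locus listed for MEF14 (AT3G26780, beside the member AT3G26782) were not in the family list and were not counted, and DYW3 was listed at 0 in all 3 replicates.

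An EMB symbol in RefSeq is carried by 5 members. The symbol is given to genes whose mutants stop as embryos, and the set was picked after its values were seen. EMB175 (AT5G03800) had 1.97, 2.30 and 3.22 CPM and EMB2758 (AT4G33990) 1.35, 1.90 and 1.76 CPM. EMB3141 (AT5G50390) had a mean of 1.57 CPM, EMB2261 (AT3G49170) 1.49 CPM and EMB2744 (AT5G39680) 0.413 CPM. None was among the 10 highest members.

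In the 20 members with at least 10 reads in every replicate (23.0%, against 61.6% of all family genes), the median coefficient of variation (CV) of the 3 values was 16.1%, against 16.4% in the 7873 family genes in the same range of mean reads. The CV from counting alone, the inverse square root of the mean reads in percent, had a median of 21.4% in these 20 members. It describes many repeats, and the CV of only 3 values falls below it more often than not. The 16.1% observed is therefore not a like measure. The lowest CVs were those of RARE1 (4.75%), AT1G19720 and CREF3, each below its own CV from counting alone. The highest were those of AT4G01030 (53.1%), which had 10, 26 and 13 reads, AT3G26782 (37.8%), which had 11, 10 and 17 reads, and CRR28 (34.7%), which had 21, 28 and 13 reads. These highest CVs were each above the CV from counting alone, which was 24.7% for AT4G01030 and 28.1% for AT3G26782. Whether the order of the CVs reflects more than counting error was not tested. Below 10 reads in a replicate the values rest on few reads. AT1G34160, a gene named after its values were seen, had 6, 5 and 19 reads. Its CV was 85.6%, against 31.6% from counting alone, and the source of the difference was not tested.

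The proteins that work with DYW factors were mostly read more often. The DYW median was 0.813 ± 0.185 CPM and the median of the 15 listed cofactors was 20.1 ± 2.97 CPM, and the ratio of cofactors over DYW genes was 25.3, 26.8 and 23.0 in CK1, CK2 and CK3. On levels per kb of transcript this ratio had a mean of 59.7, with a median transcript length of 2388 bases in DYW genes and 1353 bases in the cofactors. Since a read stands for a molecule whatever its length, this division is no correction. It lowers the longer DYW genes more and so raises the ratio. MORF9 of the chloroplast had 120, 102 and 112 CPM in CK1, CK2 and CK3. The RNA recognition motif proteins ORRM6 of the chloroplast and ORRM4 of mitochondria had means of 78.2 ± 8.59 and 67.6 ± 5.15 CPM. The lowest were MORF4 with 1.43 ± 0.301 CPM, NUWA, a PPR protein that works with DYW2, with 1.87 ± 0.920 CPM, and MORF7 with 5.21 ± 0.852 CPM. DYW1 lay below MORF9, ORRM6 and ORRM4 in every replicate, and at least 10 reads in every replicate were found for 20 of the 87 DYW genes (23.0%) and 13 of the 15 cofactors, with 46.9% of the other PPR genes and 61.6% of all family genes past this limit. MORF2 was not analysed here.

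E-type factors, which bind RNA but lack the DYW domain, were low as well. The DYW median of 0.813 ± 0.185 CPM stood above the median of the 17 listed E-type factors, 0.495 ± 0.0895 CPM, and the ratio of E-type over DYW was 0.613 ± 0.0489, below 1 in 3 of 3 replicates. The E-type medians of 0.492, 0.406 and 0.585 CPM in CK1, CK2 and CK3 lie close to the limit of 3 reads (0.369, 0.406 and 0.439 CPM). The ratio thus rests on few reads, and no alternative setting was run for it. CLB19 for rpoA and clpP had 5.79, 5.96 and 7.61 CPM, CRR21 for ndhD had 4.19, 4.74 and 4.68 CPM, and MEF20 had 1.11, 2.03 and 1.90 CPM. SLG1, MEF25 and MEF21 were the lowest, with means of 0.191, 0.225 and 0.270 CPM. CRR4, which needs DYW1 as its partner, had 0.985, 0.677 and 0.439 CPM, while DYW1 had 13.8, 23.8 and 19.6 CPM. MEF19 was not analysed here.

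**Figure D4:**
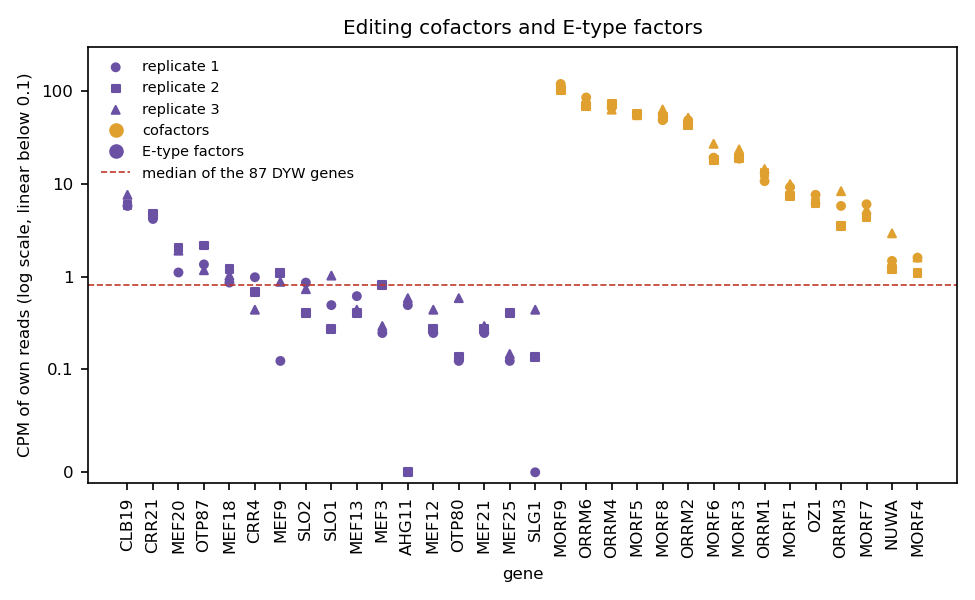
Level in CPM of own reads (y axis, log scale, linear below 0.1) of each listed E-type factor and editing cofactor (x axis), with a symbol for each ONT Pc replicate and a dashed line at 0.813 CPM, the median of the 87 DYW genes. The cofactors lie above the line, from 1.43 CPM (MORF4) to 111 CPM (MORF9) in the mean, and the E-type factors lie on both sides of it.

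The transcripts that these factors edit were barely sampled. All 48 plastid features together had 146, 191 and 164 reads in CK1, CK2 and CK3, and all 67 mitochondrial features had 103, 124 and 96 reads. Editing itself was not analysed here, since the processed files used here hold no base calls. The leaf origin of the RNA was plain from RBCS1A, a subunit of Rubisco, with a mean of 27166 CPM, and from LHCB2.1 and PSAN of the photosystems, with 2231 and 3651 CPM. Of the root markers, PYK10 had 17.7 CPM and CASP1 0.143 CPM, while COBL9 and MYB36 were not analysed here. The flower markers AP3, PI, AG and SEP2 had means from 0.188 to 0.524 CPM.

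Members were alike in gene structure. Their coding sequence lay in 1 exon in 72 of the 87 (82.8%), against 73.5% of the other PPR genes and 19.8% of all family genes. It ran from 720 to 3195 bases with a median of 2094, and the encoded proteins from 239 to 1064 residues with a median of 697. The genes were spread over the 5 chromosomes, with 18, 10, 22, 17 and 20 members on chromosomes 1 to 5. Transcript length and mean level showed next to no relation across the 87 genes (Spearman's rho 0.0593, and 0.0966 without DYW1), which share libraries and depth and are not independent replicates.

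Reads of some members could be credited to another gene, because 30 members overlap an annotated gene, 2 of them among the 10 highest. The 30 had a median of 0.746 ± 0.181 CPM, and the 57 that overlap none had 0.813 ± 0.185 CPM. In 5 members the overlap took more than 50% of the gene, and among them were several of the lowest. AT3G02010, the member without a read, lies wholly within the span of AT3G02020 on the opposite strand, which had 143, 118 and 132 CPM. CREF7 lies wholly within the span of AT5G66530, which had 136, 141 and 138 CPM, and MEF22 overlaps AT3G12760, which had a mean of 19.7 CPM, over 81.0% of its span. AT1G31920 lies wholly within AT1G31910, which had 113 CPM, and had 2.83, 1.90 and 1.46 CPM itself. DYW2 overlaps CML30 (AT2G15680), a calmodulin-like gene with 3 reads in each replicate, over 647 bases, and an lncRNA gene over 1489 bases. The part of such overlaps in these values was not tested.

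In the PacBio library, 38 isoforms at 17 loci carried the DYW domain, of 24665 isoforms at 7368 loci that carried any family. This is 19.5 loci per 100 reference genes of the DYW family, against 33.0 for the other PPR genes and 33.1 for all genes with a family. There was 1 library, so these counts have no replicate error. The authors numbered the loci, and the list does not pair them with genes. Of these loci, 4 held 25 of the 38 isoforms, with 9 at PB.7480, 7 at PB.2519, 6 at PB.7956 and 3 at PB.4773, and 13 loci held 1 each. DYW loci had a mean of 2.24 DYW isoforms, and the other PPR loci had a mean of 2.40 PPR isoforms.

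Most DYW isoforms, 35 of the 38, were also listed under a PPR family. The list gives no lengths or ends, so whether the isoforms are complete was not tested. The exceptions were PB.2519.8, PB.7480.11 and PB.12244.2. At 7 of the 17 loci there were also 42 isoforms that carried some family but no DYW domain, with 22 of these at PB.12244 and 10 at PB.4773.

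At 3 loci, 8 isoforms carried the DYW domain together with a family that is neither PPR nor the related TPR repeat. At PB.2519, 6 of the 7 DYW isoforms also had a jacalin-like lectin domain, a sugar-binding fold. PB.4773.2 also had EF hands, which bind calcium, listed under 5 families. PB.12244.2 also had the TIR and NB-ARC domains of disease resistance proteins, listed among 5 families, and no PPR family.

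In the reference, exactly 1 member in each case stands next to a gene that carries every one of these added families. AT1G19720, the fourth member by level, lies 21 bases from AT1G19715, a jacalin gene on the same strand with 27.6, 30.7 and 26.0 CPM, while AT1G19720 had 10.3, 9.34 and 9.51 CPM. DYW2 overlaps CML30, whose gene carries the EF hands and runs on the opposite strand. AT5G46460, a member with 2, 3 and 0 reads, lies 137 bases from AT5G46450, a TIR and NB-ARC gene on the same strand with 3.94, 5.42 and 5.27 CPM. On its other side it lies 73 bases from RPS6, a further TIR and NB-ARC gene. Since loci and genes are not paired in the list, whether these isoforms come from those genes, and whether they are transcripts across a pair of genes or were joined in processing, was not tested.

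**Figure D5:**
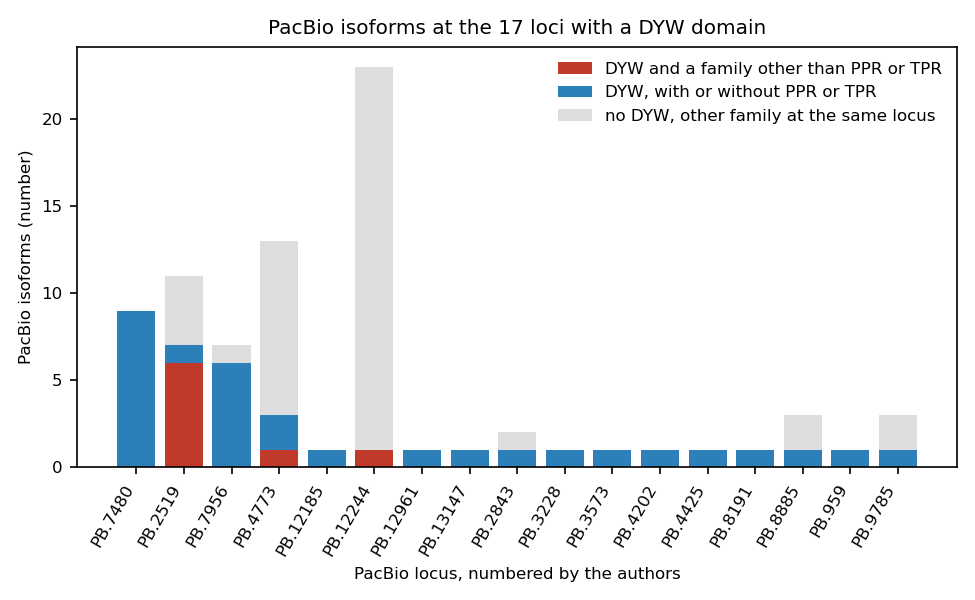
Number of PacBio isoforms (y axis) at each of the 17 loci with a DYW domain (x axis), split into isoforms with DYW and a family other than PPR or TPR, other DYW isoforms, and isoforms without DYW at the same locus. The first kind stands at PB.2519 with 6, PB.4773 with 1 and PB.12244 with 1, and 13 of the loci have a single DYW isoform.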

How the data were processed

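Aboveground parts of wild-type Col-0 plants were sequenced as 3 ONT Pc replicates and 1 PacBio library. For ONT Pc, the authors estimated transcript counts with Salmon and deposited CPM per gene. The deposited columns added to 1000000, 476263 and 305905, because each was divided by a running total of reads. Whole reads were recovered from 100% of the values (tolerance 0.1 read, 23281 features), and CPM were recomputed on each replicate's own 8122432, 7386184 and 6835029 reads. For PacBio, the authors deposited Pfam families with their transcripts. The submitters' processing notes name minimap2 and TAIR10.

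Members and gene lists were chosen with earlier results of these data known. Genes named were the 10 highest members, all members in the role lists, the 3 highest and 3 lowest CVs, members without a read, and the 3 highest and 3 lowest cofactors and E-type factors. Family and PPR genes not listed counted as 0, and MORF2, MEF19, COBL9 and MYB36 were left out of their lists. Gene structure, names (all members matched) and sequences came from RefSeq TAIR10.1; coding bases are shown in place of protein stretches. With 1 condition, no groups were tested. An exact sign-flip between the highest members had been planned, but the pair was picked on the same values and 3 replicates cannot give a p under 0.25, so no such p is used. The study's methods give each replicate several plants and speak of biological replicates for Illumina. Recovery of reads and of CVs was tested on simulated data, the CVs only for features with far more reads than any member. Alternatives were another scale, detection limit, pseudocount (0.5 or 1 CPM) or division by transcript length, and leaving out replicates. The tools were pandas 2.3.3 and numpy 2.4.6 in Python 3.11.15, with scipy 1.17.1 and matplotlib 3.10.9.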

Additional observations from a re-analysis of the deposited data

How the results depend on the processing

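The ratio of the DYW median to that of other PPR genes was 0.527 over genes read in every replicate and 0.536 per kb. With a pseudocount it was 0.654 at 0.5 CPM and 0.723 at 1 CPM. The ratio of chloroplast over mitochondrial factors was 2.01 over genes read in every replicate and 2.43 per kb. With a pseudocount that ratio was 2.20 at 0.5 CPM and 1.86 at 1 CPM. A pseudocount moves any such ratio towards 1 and cannot reverse it. Leaving out a replicate could not reverse these ratios either, since all replicates had the same direction. Both kinds of alternative therefore show the size of a ratio only. The ratio of cofactors over DYW genes was 21.6 over genes read in every replicate, 59.7 per kb, 15.7 with a pseudocount of 0.5 CPM and 11.6 with 1 CPM. Detection depended on the limit, with 46 members at more than 3 reads in every replicate, 20 at 10 reads or more, and 38 at a mean of at least 1 CPM. On the CPM as deposited, the median of the members was 0.458 CPM, DYW1 10.4 CPM and the median CV 55.7%, by construction, since the columns add to different totals. The median CV was 9.27% over the 7 members with at least 30 reads. Loci with at least 2 DYW isoforms numbered 4, with 25 isoforms.

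Leaving out each replicate in turn gave 76 to 80 members detected, a median of 0.708 to 0.881 CPM, 0.0139 to 0.0150% of reads, a ratio to other PPR genes of 0.488 to 0.579, 16.7 to 21.7 CPM for DYW1, a chloroplast over mitochondrial ratio of 2.82 to 3.08 and a cofactor ratio of 24.2 to 26.1. Alternatives chosen after seeing the data gave a median of 0.791 CPM and a ratio of 0.522 without AT1G19720, DYW2 and AT5G46460, and 2.79 for chloroplast factors without DYW1. No paired analysis was possible because only 1 condition was measured, so there were no groups to pair (genes were compared within replicates). Most members rest on fewer than 10 reads per replicate, so differences between single low members were not detectable at this depth.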
